A study of Mus musculus with 12 samples.

Results

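The comparison described here is between CD4 T cells of Pkm2 knockout (KO) and wild type (WT) mice after stimulation through the T cell receptor. Its members are the 3 KO and the 3 WT stimulated libraries, 6 of the 12 libraries of the series, and every gene with enough counts in them was tested. T cells were taken from spleen and lymph nodes, selected positively for CD4, and kept for 24 hours with human interleukin 7 (IL7) at 25 ng/mL, a cytokine that maintains naive T cells. All 6 cultures of this comparison also received plate-bound antibodies, at 1 ug/mL against CD3 and at 2 ug/mL against CD28. The other 6 libraries are 3 WT and 3 KO cultures with IL7 alone, called resting below. The labels name the source also as splenocytes and the culture also as overnight, and the knockout's allele, the promoter of any Cre and the age of the mice are not given in the sources used here. Whether each library is a different mouse is not stated in the labels. The p-values therefore measure the spread among these libraries alone, and that spread may be technical.

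Pyruvate kinase makes pyruvate and ATP in the last step of glycolysis. The gene Pkm gives 2 forms by a choice between alternative exons, M1 in muscle and nerve and M2 in growing cells such as activated T cells. Activated T cells raise glucose uptake, glycolysis and lipid synthesis, secrete cytokines, and turn down the receptors that keep naive cells circulating. Survival of T cells and oxidation of pyruvate are named in the title of the series.

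Pkm, the targeted gene, was measured first as a check of the labels. It lay at 2219.9, 2165.6 and 2242 CPM in the WT libraries and at 944, 953 and 924 CPM in KO, where CPM is a gene's count scaled to the size of its library. No KO library came near a WT library. This was a log2 fold change, KO against WT, of -1.23 ± 0.03 (SE; edgeR adjusted p = 1.4e-08), and the call held with any 1 library left out. Counts per gene add both forms, so what remained in KO was not assigned to M1 or M2. The 13 CD4 T cell markers were present in every library, with sums of 3444 ± 72.1 CPM in the WT and 3496 ± 41.4 in the KO libraries (SD, n = 3). Of these markers, 0 of 13 passed, by edgeR, and 3 of 13 did not overlap between the groups, near the 4.76% that passed and the 27.4% without overlap over all genes tested. Library totals ran from 67333508 to 76891826 counts, and Xist, the RNA of the inactive X chromosome, lay between 822 and 1015 CPM in the 6 libraries. The 5 listed Y-linked genes (Ddx3y, Eif2s3y, Kdm5d, Uty and Zfy1) had 0 counts in all 6, under a floor of 3 counts that lay at 0.039 to 0.0446 CPM.

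In stimulated cells, more genes were higher in KO than lower, and the higher ones had a lower median level than all genes tested. Of 15090 genes tested, 719 passed (4.76%), with 508 higher in KO (3.37%) and 211 lower (1.4%); passing means an adjusted p under 0.05 by edgeR's quasi-likelihood test. For the genes that rose, the median change was 0.61 on the log2 scale, and 141 of them changed at least 2-fold. Their median level was 6.13 CPM, beside 16.3 CPM over all genes tested. For those that fell, the medians were -0.19 and 65.6 CPM, and 10 of them changed at least 2-fold. Among 4900 genes under 3 CPM, 191 rose (3.9%, beside 3.37% over all levels) and 14 fell (0.286%). Among 584 genes at 300 CPM and over, 7 rose (1.2%) and 20 fell (3.42%). The highest share of rises, 4.44%, lay at 3 to 30 CPM. All 719 were free of overlap between the KO and the WT libraries, as were 4132 of all genes tested (27.4%). The first principal component of the 6 libraries, with 54.9% of the variance, placed WT at -12.02, -2.25 and -7.21 and KO at 6.47, 7.23 and 7.79, so that WT replicate 2 lay nearest to KO. These counts moved with single libraries. They were 331 higher and 127 lower without WT replicate 1, 917 and 491 without WT replicate 2, and 183 and 79 without WT replicate 3. Without KO replicate 1, 2 or 3 they were 185 and 36, 110 and 18, and 128 and 33. A fit that took its spread from all 12 libraries called 191 higher and 28 lower. Of the 158 genes followed one by one, 48 passed in each of the 6 fits with 1 library left out, and 0 changed direction in any fit. As genes that passed did not overlap between groups, leaving out 1 library could not reverse them, so the last count adds no support.

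**Figure D1:**
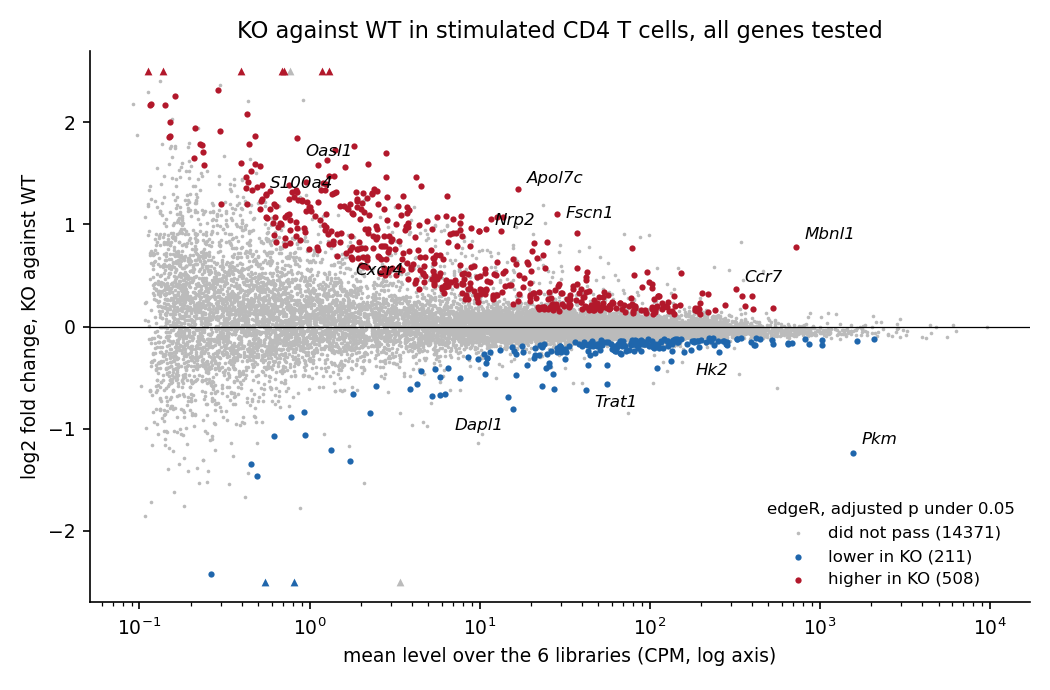
Log2 fold change of KO against WT (vertical axis) against mean CPM over the 6 stimulated libraries (horizontal, log axis) for each gene tested; red and blue points passed as higher (508) and lower (211), and triangles lie beyond the axis. Higher genes cluster at the left at large changes, and Pkm stands alone at the lower right at -1.23.

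Many interferon response genes rose in KO stimulated cells. These genes are switched on by factors such as Irf9 after cells sense an interferon, and many of their products block viruses. Of 60 tested, 26 rose and 1, the guanylate-binding protein gene Gbp2, fell, 45% called beside 4.76% over all genes tested. The median log2 fold change of the 60 was 0.44 beside 0 over all genes tested, and 54 lay above 0. The genes with the largest changes were sensors and effectors against viral RNA and DNA, all at low levels. Oasl1, of the oligoadenylate synthetase family, lay at 0.984, 1.47 and 0.838 CPM in WT and at 3.12, 4.0 and 2.79 in KO. Every KO library was above every WT library, with a log2 fold change of 1.59 ± 0.22 (edgeR adjusted p = 0.007). Ifi213, a member of the DNA-sensing Ifi200 family, measured 1.58, 1.94 and 0.986 CPM in WT and 4.14, 4.18 and 4.11 in KO, a rise of 1.47 ± 0.20 (adjusted p = 0.007). The 3 KO libraries were nearly equal and WT replicate 3 was lowest. Mx1, a GTPase that blocks influenza virus, measured 0.728, 0.883 and 0.730 CPM in WT and 1.54, 2.39 and 1.82 in KO (1.3 ± 0.20, adjusted p = 0.008). Its groups were separated by a gap wider than the spread within WT. Oas1a, which makes the 2-5A signal for RNA decay, went from 3.62 ± 0.73 to 7.60 ± 0.924 CPM (SD, n = 3; adjusted p = 0.007). Samd9l, Slfn5 and Dhx58, a regulator of RNA sensing, rose by 0.94 ± 0.11, 0.89 ± 0.12 and 0.91 ± 0.12. Irf9, the DNA-binding subunit of the interferon-activated complex, lay at 46.5, 50.5 and 45.2 CPM in WT and at 60.7, 60.1 and 59.2 in KO (0.34 ± 0.04, adjusted p = 0.0042). This regulator changed less than the genes above and without overlap. These 7 genes and Irf9 kept their call with any 1 library left out.

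Other interferon genes passed less firmly. Rsad2, which encodes the antiviral enzyme viperin, measured 0.714, 0.855 and 0.540 CPM in WT and 1.82, 2.16 and 1.35 in KO (1.34 ± 0.23, edgeR adjusted p = 0.013). Ifit1, whose product binds foreign RNA, measured 1.35, 1.64 and 0.986 in WT and 3.09, 3.12 and 2.42 in KO (1.12 ± 0.19, adjusted p = 0.013). Neither overlapped between groups, and both calls were lost without KO replicate 1 or KO replicate 2, with adjusted p up to 0.069 and 0.071. Of the interferon receptor genes, Ifnar1 rose from 39.0 to 44.9 CPM and Ifngr1 from 26 to 30.2 CPM. The call of Ifnar1 was lost without WT replicate 3 or any 1 KO library, and that of Ifngr1 also without WT replicate 1. Gbp2 fell by 0.17 ± 0.04 from 916 ± 45.2 CPM, a call lost without WT replicate 1 or any 1 KO library (up to 0.16). The number of list members called higher was 18, 41 and 15 without WT replicate 1, 2 or 3 and 16, 10 and 12 without KO replicate 1, 2 or 3. Ifi209, a further Ifi200 gene outside the list, rose from 7.55 ± 1.27 to 15.7 ± 0.489 CPM (1.05 ± 0.10, adjusted p = 0.002) and kept its call in all 6 such fits. The Ifi200, Oas and Slfn families hold near-identical copies, so the split of reads within each family is uncertain. In WT the genes also varied together: of the 26 that rose, 24 were highest in WT replicate 2, and 17 were lowest in WT replicate 3.

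**Figure D2:**
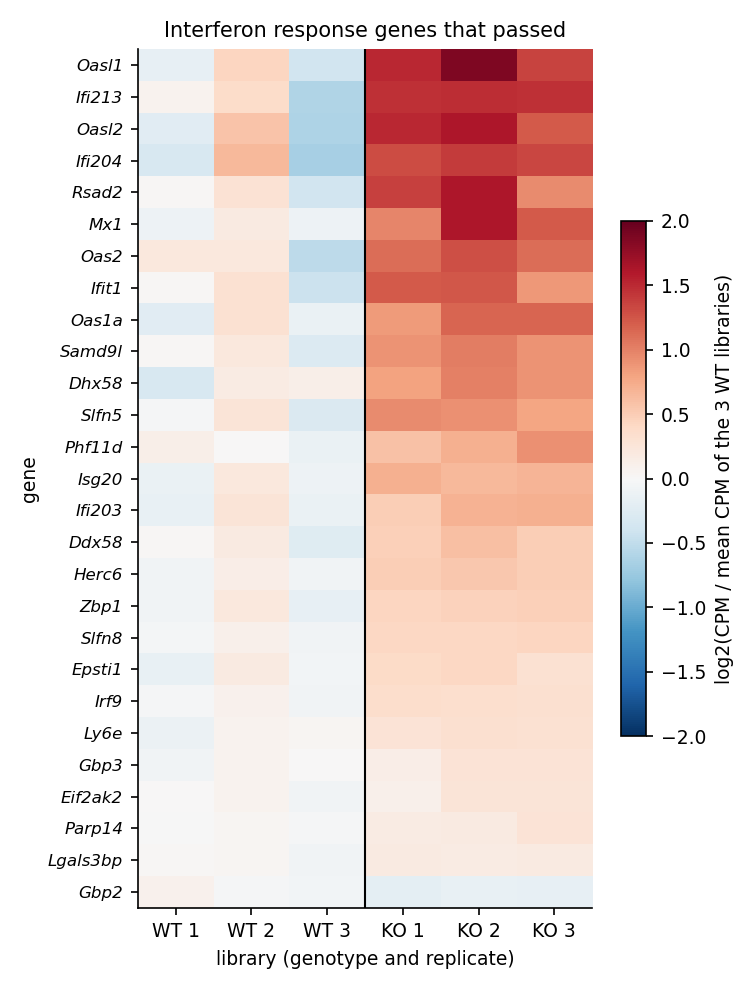
Heat map of the 27 interferon response genes that passed (rows) in the 6 stimulated libraries (columns); colour is log2 of CPM over the WT mean. The 3 KO columns are red for 26 genes and blue for Gbp2 (-0.17), and among the WT columns replicate 2 is the reddest.

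Promoter windows of interferon genes with a match to the core of the interferon-stimulated response element are printed because Irf9 binds DNA of this kind. The letters searched were GAAANNGAA on both strands, from 250 bases before to 50 after the start in RefSeq (GRCm38.p6). Of the 26 genes that rose, 19 had a window and 11 of those held a match (57.9%); of the interferon genes that did not rise, 26 had a window and 17 of those held one (65.4%). Over all tested genes with a window the share was 8.85%. The sequences below are 5′ to 3′ on the gene's strand with matches in capitals, where TTC at the left marks a match on the other strand and joined capitals are overlapping matches. They lie at chr1:173599297-173599385 (minus strand, Ifi213), chr12:26456523-26456611 (minus, Rsad2), chr19:34640740-34640828 (plus, Ifit1) and chr5:120907497-120907585 (minus, Oas1a).
Ifi213: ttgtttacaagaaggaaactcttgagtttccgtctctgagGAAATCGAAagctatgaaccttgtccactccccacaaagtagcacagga
Rsad2: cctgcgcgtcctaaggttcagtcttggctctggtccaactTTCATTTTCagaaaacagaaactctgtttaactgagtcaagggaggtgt
Ifit1: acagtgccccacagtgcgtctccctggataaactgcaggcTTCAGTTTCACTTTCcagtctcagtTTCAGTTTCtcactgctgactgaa
Oas1a: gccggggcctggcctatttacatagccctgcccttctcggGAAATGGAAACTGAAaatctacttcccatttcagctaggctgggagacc
Ifi213 and Rsad2 held 1 match, Oas1a 2 and Ifit1 3. A match describes letters only, and binding was not measured.

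Part of the antigen presentation genes rose in KO. Of 20 MHC class I presentation genes, 6 rose and 0 fell, 30% called beside 4.76% over all genes tested. H2-Q7, a class I molecule of the Qa region, lay at 296, 328 and 310.1 CPM in WT and at 373, 380.1 and 398 in KO (0.30 ± 0.04, edgeR adjusted p = 0.0061). H2-Q6 rose by 0.53 ± 0.07, and Cd1d1, which presents lipids to NKT cells, lay at 2.25, 2.2 and 2.11 CPM in WT and at 3.53, 3.68 and 3.86 in KO (0.75 ± 0.10, adjusted p = 0.0061). Both H2-Q7 and Cd1d1 kept their call with any 1 library left out, while H2-Q6 lost it without WT replicate 3, KO replicate 2 or KO replicate 3. The Qa genes are near-identical copies, and reads may be split among them. Nlrc5, the transactivator of class I genes, rose by 0.23 ± 0.04, lost without KO replicate 2 or KO replicate 3 (adjusted p up to 0.079). Of 10 class II presentation genes, 4 rose: Ciita, the master activator of class II, H2-DMa, which helps to load peptides, and H2-Oa and H2-Ob, which restrain that loading. H2-Ob measured 3.72, 5.44 and 4.54 CPM in WT and 8.75, 9.23 and 10.4 in KO (1.05 ± 0.13, adjusted p = 0.0049), and its call held in all 6 fits with 1 library left out. The Ciita call, a rise from 8.16 ± 1.86 to 17.1 ± 1.47 CPM, was lost without WT replicate 3 or any 1 KO library (up to 0.10). With single libraries left out, class I counts ranged from 2 without KO replicate 2 or 3 to 14 without WT replicate 2, and class II counts from 1 without KO replicate 2 or 3 to 6 without WT replicate 1 or 2.

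Summed markers of B cells, myeloid cells and dendritic cells were higher in every KO than in any WT library. The CD4 T cell sums given above overlapped between the groups. The 18 B cell markers summed to 527, 835 and 693 CPM in WT and to 1034, 1034 and 1055 in KO. No KO library overlapped WT, and WT replicate 2 lay nearest to KO. All 18 had a log2 fold change above 0 (median 0.73), and 4 passed as higher, among them Cd72, a coreceptor of B cells (0.83 ± 0.13), and Spib, a B cell transcription factor (0.94 ± 0.15). Every B cell marker was lowest in WT replicate 1, and 16 of 18 were highest in WT replicate 2. Class II genes summed to 366, 612 and 492 CPM in WT and to 854, 881 and 930.0 in KO. Myeloid markers summed to 40.5, 68.9 and 48.3 CPM in WT and to 100.2, 105 and 98.9 in KO, with 7 of 17 higher, such as the macrophage genes Csf1r, the receptor of colony-stimulating factor 1, and Adgre1. All 17 were highest in WT replicate 2 among the WT libraries. Dendritic cell markers summed to 427, 536 and 486 CPM in WT and to 696, 694 and 620.4 in KO, with 6 of 13 higher. Cd209a, a dendritic cell lectin, had 0 counts in all 6 libraries. These sums move with the interferon and presentation genes above, in KO against WT and in WT replicate 2 against the other WT libraries. The class II genes are the same in both, and Bst2 is in both the interferon and the dendritic cell list. Part of this agreement was thus fixed by shared members. The part of the marker sums in those results was not tested. In such bulk libraries, more cells of a type and more RNA per cell cannot be told apart. At rest this order was not seen. B cell sums ran from 1948 to 4059 CPM in WT and from 2818 to 2940 in KO. Myeloid sums ran from 1671 to 5518 in WT and from 1521 to 1577 in KO. In stimulated cells 22.2% of B cell, 41.2% of myeloid and 46.2% of dendritic cell markers passed as higher, beside 3.37% of all genes tested. The lists were chosen with earlier results of these data known. Apol7c, Fscn1 and Cacnb3, clear calls of this comparison, are among the dendritic cell markers, so these shares add no independent support. The number of B cell markers called was 9, 11 and 2 without WT replicate 1, 2 or 3 and 1, 0 and 0 without KO replicate 1, 2 or 3. For myeloid markers it was 2, 12 and 0, and 0, 0 and 1. Cd72, Spib, Csf1r and Adgre1 each lost their call without KO replicate 2 or KO replicate 3, with adjusted p up to 0.062, 0.076, 0.15 and 0.14.

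**Figure D3:**
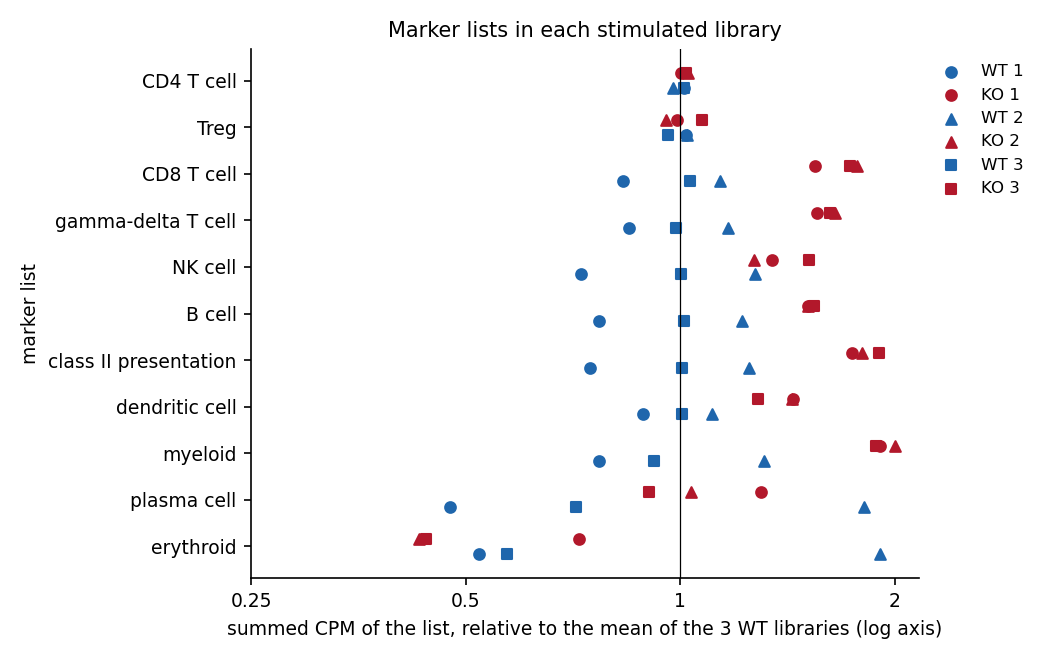
Summed CPM of each marker list in each stimulated library, relative to the mean of the 3 WT libraries (log axis); blue is WT, red is KO, and the marker shape gives the replicate. B cell, class II, myeloid, dendritic, CD8 and gamma-delta lists lie to the right in KO, with the B cell sums at 1034 to 1055 CPM in KO against 527 to 835 in WT, while CD4 T cell and Treg lists stay near 1.

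Within those lists and beside them, some genes kept their call whichever library was left out. Fscn1, an actin-bundling protein of mature dendritic cells, lay at 15.7, 19.9 and 19 CPM in WT and at 44.2, 36.5 and 36.4 in KO (1.10 ± 0.11, edgeR adjusted p = 0.0061). Cacnb3, a calcium channel subunit, measured 5.79, 6.35 and 5.93 CPM in WT and 13.5, 10.6 and 11.3 in KO (0.96 ± 0.09, adjusted p = 0.0013). In both, KO replicate 1 was the highest library. Fscn1 did not pass with the spread of all 12 libraries or with a replicate block (adjusted p up to 0.11). Apol7c, an apolipoprotein L gene of dendritic cells, measured 9.58, 9.34 and 9.61 CPM in WT and 29.9, 22.4 and 20.3 in KO, and missed the threshold only without WT replicate 3 (adjusted p = 0.05). Ccl17, a chemokine that attracts T cells, rose from 1.87 ± 0.331 to 3.86 ± 0.474 CPM (adjusted p = 0.007). Nrp2, a receptor for semaphorins, had the smallest p among these, with 6.82, 7.76 and 7.80 CPM in WT and 14.6, 13.7 and 14.9 in KO (0.95 ± 0.07, adjusted p = 0.00017). Tlr9, a sensor of microbial DNA, rose by 1.27 ± 0.14, and Icosl, the ligand of Icos, went from 2.04 ± 0.424 to 4.61 ± 0.671 CPM. Il1r2, a decoy receptor for interleukin 1, rose by 1.12 ± 0.16, and Tnfaip2 and Rassf4 rose by 1.01 ± 0.11 and 1.14 ± 0.14. Of these 10 genes, all but Apol7c passed in each of the 6 fits with 1 library left out. Il1r2, Tnfaip2 and Rassf4 did not pass with the spread of all 12 libraries (adjusted p = 0.12, 0.46 and 0.10).

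Single markers of other lymphocytes also rose: 1 of 2 CD8, 2 of 8 gamma-delta and 1 of 10 NK cell markers, beside 3.37% of all genes tested. Cd8b1, the beta chain of CD8, lay at 10.8, 13.2 and 12.5 CPM in WT and at 18, 19.9 and 20 in KO (0.67 ± 0.08, edgeR adjusted p = 0.0029). Trdc, the constant region of the gamma-delta receptor, measured 1.95, 2.29 and 2.23 CPM in WT and 3.53, 4.56 and 4.84 in KO (1.00 ± 0.14, adjusted p = 0.0061). Both groups were apart in each gene. Klrb1b, a receptor of NK cells, rose by 1.32 ± 0.17 (adjusted p = 0.0055), the only one of 10 NK markers to pass. These 3 calls held with any 1 library left out. Il23r, the receptor of interleukin 23 and the other gamma-delta marker that rose, went from 0.309 ± 0.134 to 0.735 ± 0.0362 CPM (adjusted p = 0.043), a call that was lost without WT replicate 1, WT replicate 2 or any 1 KO library (up to 0.15). Of 10 Treg markers and 7 erythroid markers, 0 passed by edgeR in either direction; Treg markers added up to 1254 ± 43 CPM in WT and 1260 ± 76 in KO. Erythroid markers added up to 19.7, 71.9 and 21.5 CPM in WT and 27.2, 16.2 and 16.6 in KO, with WT replicate 2 apart from the rest.

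In the T cell receptor pathway, 1 of 28 genes rose and 3 fell, and the CD3 and Cd247 chains did not pass. Over all genes tested 3.37% rose and 1.4% fell, so the count that rose is near that share. Ptpn22, a phosphatase that restrains receptor signalling, lay at 69.1, 71.5 and 69.3 CPM in WT and at 81.9, 85.6 and 86.9 in KO (0.28 ± 0.03, edgeR adjusted p = 0.0038). The gap between the groups exceeded the spread within either, and the call held with any 1 library left out. Trat1, an adaptor that stabilizes the receptor complex, lay at 56.3, 49.1 and 47.7 CPM in WT and at 37.0, 33.1 and 29.4 in KO (-0.62 ± 0.09, adjusted p = 0.018), a call lost without WT replicate 2 or KO replicate 2 (up to 0.082). Themis and the adaptor Lcp2 fell by 0.25 ± 0.06 and 0.12 ± 0.03; each call was lost in at least 4 of the 6 fits with 1 library left out, including those without WT replicate 1, WT replicate 3, KO replicate 2 or KO replicate 3. Cd3e, a signalling chain, measured 199 ± 4.81 CPM in WT and 198 ± 7.18 in KO (adjusted p = 0.93).

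Few costimulation genes passed, and they moved in both directions. Tnfrsf9, the receptor 4-1BB, lay at 79.2, 88.2 and 86.3 CPM in WT and at 108, 115 and 119 in KO (0.43 ± 0.05, edgeR adjusted p = 0.0024). Cd40lg, the CD40 ligand by which helper cells activate B cells, lay at 63.3, 58.1 and 69.6 CPM in WT and at 49.0, 49.1 and 48.9 in KO (-0.38 ± 0.06, adjusted p = 0.0098). The first kept its call in all 6 fits with 1 library left out, and the second lost it without KO replicate 2 or KO replicate 3 (up to 0.06). Of 20 activation markers and checkpoints these were 2 of the 3 that passed (15%, beside 4.76% over all genes tested). The third, Cd27, rose by 0.19 ± 0.04 and lost its call without WT replicate 3 or any 1 KO library. Of 23 T helper cytokine genes, 1 rose and 2 fell, where over all genes tested 3.37% rose and 1.4% fell. Ltb, lymphotoxin beta, lay at 45.5, 45.5 and 44.0 CPM in WT and at 54.1, 56.3 and 55.0 in KO (0.29 ± 0.03, adjusted p = 0.0029); it held with any 1 library left out, and not with the spread of all 12 libraries (0.086). Lta, lymphotoxin alpha, went the other way, from 96.4 ± 3.30 to 81.9 ± 4.33 CPM (adjusted p = 0.018), and lost its call without WT replicate 3, KO replicate 2 or KO replicate 3. Lif fell by 0.14 ± 0.03 and passed only with all libraries or without WT replicate 2.

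Some genes that keep T cells circulating rose in KO stimulated cells and others fell. Of 25 genes of the naive state and homing, 5 rose (Ccr7, Klf2, Cxcr4, S1pr1 and Itgae) and 2 fell (Dapl1 and Lef1). That is 28% called, beside 4.76% over all genes tested, and the list median was 0.06. The B cell and dendritic cell marker sums given above were higher in the same libraries (1034 to 1055 against 527 to 835 CPM for B cells), and their part in these changes was not tested. Ccr7, which guides cells into lymph nodes, lay at 269, 290.0 and 289 CPM in WT and at 378, 370.2 and 349 in KO (0.37 ± 0.04, edgeR adjusted p = 0.002). Klf2, the transcription factor of the resting state that drives S1pr1, lay at 4.92, 4.95 and 4.24 CPM in WT and at 7.26, 8.02 and 7.05 in KO (0.66 ± 0.09, adjusted p = 0.0061). Each gene was apart between the groups. S1pr1, the exit receptor for lymph, rose by 0.43 ± 0.09 from 3.56 ± 0.0895 CPM; it passed with all 6 libraries and without WT replicate 2, and not without any of the other 5 (up to 0.11). Dapl1 lay at 17.8, 21.3 and 20.8 CPM in WT and at 11.1, 12.3 and 10.8 in KO (-0.80 ± 0.08, adjusted p = 0.0013). Its direction was opposite to that of Ccr7 and Klf2. Lef1, a T cell transcription factor, fell by 0.17 ± 0.04, lost without WT replicate 3 or any 1 KO library. The number of members called higher was 3 to 6 in the 6 fits with 1 library left out (6 without WT replicate 2; 3 without WT replicate 1, WT replicate 3, KO replicate 2 or KO replicate 3).

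Cxcr4, the receptor of the chemokine Cxcl12, moved in opposite directions in the 2 conditions. In stimulated cells it lay at 3.18, 3.31 and 3.20 CPM in WT and at 4.94, 4.97 and 6.35 in KO, a rise of 0.75 ± 0.11 (edgeR adjusted p = 0.0086). At rest it lay at 127, 140.4 and 143 CPM in WT and at 48.0, 45.0 and 45.0 in KO, a fall of 1.57 ± 0.06 (adjusted p = 0.00015). No KO library overlapped WT in either condition. The difference between the conditions was 2.30 ± 0.12 on the log2 scale (adjusted p = 4.6e-06), and it ranged from 2.17 without KO stimulated replicate 3 to 2.37 without KO stimulated replicate 1. Mbnl1, by contrast, rose alike: from 535, 524 and 543 CPM to 896, 937 and 911 in stimulated cells (0.78 ± 0.03, adjusted p = 9e-07) and by 0.82 ± 0.07 at rest (adjusted p = 0.02). The difference was -0.06 ± 0.08 (edgeR adjusted p = 0.77). Both differences compare conditions that also differed in sex-linked transcripts. Xist lay at 822 to 1015 CPM in the stimulated and at 0.0577 to 0.0971 CPM in the resting libraries. Condition and sex cannot be told apart there. Mbnl1 encodes an RNA-binding regulator of exon choice and was the 1 of 9 genes listed as regulators of Pkm splicing to pass. Over all genes tested 4.76% passed, so 1 call in a list of 9 says little about the list.

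**Figure D4:**
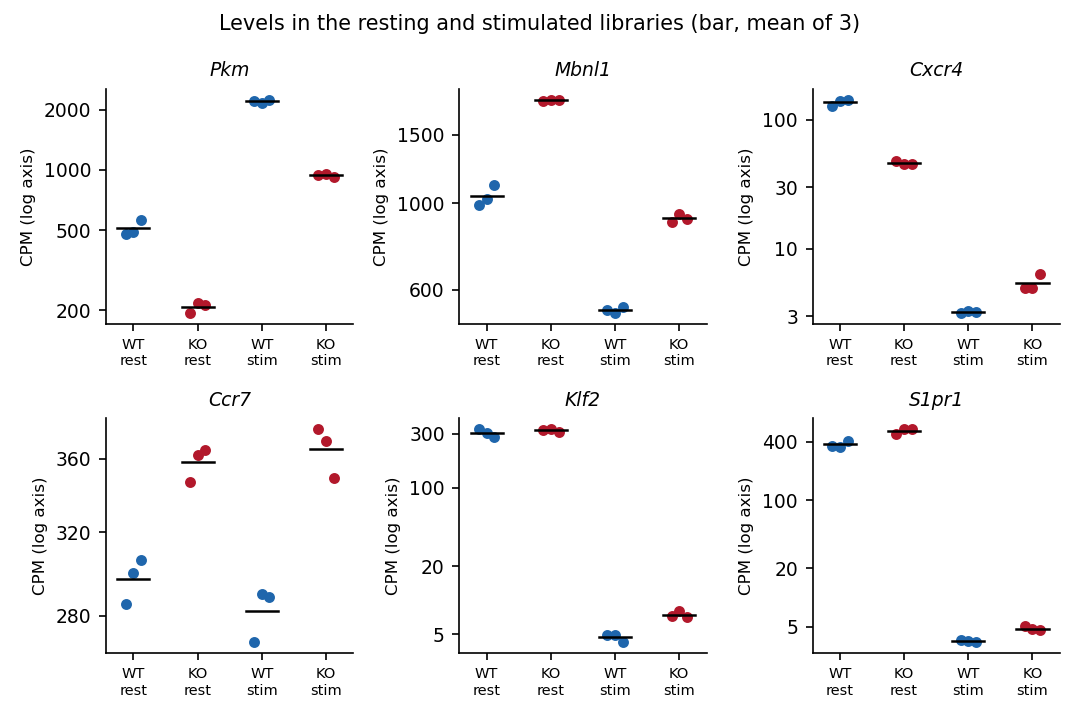
CPM (log axes, each panel with its own range) of Pkm, Mbnl1, Cxcr4, Ccr7, Klf2 and S1pr1 in the WT (blue) and KO (red) resting and stimulated libraries; points are libraries and bars are means of 3. Cxcr4 is lower in KO at rest (48.0, 45.0 and 45.0 against 127, 140.4 and 143) and higher in KO after stimulation, while Pkm is lower and Mbnl1 higher in both.

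Genes of effector and memory cells rose in part. Of 23, 6 rose and 0 fell, with a median of 0.31 and 26.1% called beside 4.76% over all genes tested. Myeloid marker sums were higher in the same KO libraries (98.9 to 105 against 40.5 to 68.9 CPM), and their part in these changes was not tested. S100a4, a calcium-binding protein of motile cells, lay at 0.525, 0.898 and 1.01 CPM in WT and at 2.10, 2.42 and 2.69 in KO (1.56 ± 0.22, edgeR adjusted p = 0.007). S100a11, of the same family, lay at 20, 19.2 and 20.3 CPM in WT and at 24.6, 25.5 and 25.3 in KO (0.34 ± 0.04, adjusted p = 0.0039). Both members of the family were apart between groups and kept their call with any 1 library left out. Anxa2, a membrane-binding annexin, rose by 0.61 ± 0.09 and S100a6 by 0.69 ± 0.13; both were lost without WT replicate 3, KO replicate 2 or KO replicate 3. The list count was 2 without WT replicate 3, 3 without KO replicate 2 or KO replicate 3, and 10 without WT replicate 2. Outside the lists, Tmem173, which encodes the DNA-response adaptor STING, fell from 173 ± 1.83 to 146 ± 2.65 CPM (-0.25 ± 0.03, adjusted p = 0.0024). Fbln1, an extracellular matrix protein, fell by 0.68 ± 0.09, Tfpi, an inhibitor of coagulation, by 0.69 ± 0.07, and Klk8, a secreted protease, by 0.47 ± 0.07. These 4 genes passed in all 6 fits with 1 library left out, and Tmem173 and Tfpi did not with the spread of all 12 libraries (adjusted p = 0.11 and 0.16). Tet1, which oxidizes methylated cytosine, fell from 4.71 ± 0.682 to 3.08 ± 0.234 CPM, and the call was lost without WT replicate 3 or any 1 KO library (up to 0.10).

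A minority of glycolysis and pyruvate genes fell in KO, by small amounts. Of 20 glycolysis genes other than Pkm, 6 fell and 0 rose (30%, beside 1.4% lower over all genes tested). Their median change was -0.12 on the log2 scale. Of 22 genes of pyruvate use 4 fell, and their median was -0.05. Hk2, which traps glucose as its phosphate, lay at 186, 193 and 191 CPM in WT and at 168, 155 and 162 in KO (-0.23 ± 0.03, edgeR adjusted p = 0.0079). Eno1, Pgk1, Pgam1 and Tpi1, which act between the entry of glucose and pyruvate kinase, fell by 0.14, 0.13, 0.16 and 0.16, and Slc2a1, the glucose transporter, fell by 0.16. Ldha, which turns pyruvate to lactate, lay at 2170.1, 2179 and 2219.6 CPM in WT and at 2032, 2041 and 1955 in KO (-0.12 ± 0.03, adjusted p = 0.039). Its groups did not overlap, and its KO level was 0.918 times that of WT. Slc16a1, a carrier of lactate and pyruvate, and Pdha1, of pyruvate dehydrogenase, fell by 0.14 and 0.12, and Pcx, which makes oxaloacetate from pyruvate, fell by 0.31. Pklr, the other pyruvate kinase gene, had 0 counts in all 6 libraries. These calls were fragile: the glycolysis count was 3, 12 and 1 without WT replicate 1, 2 or 3 and 1, 0 and 1 without KO replicate 1, 2 or 3, and the pyruvate count was 2, 7 and 0, and 0, 0 and 0. The call of Hk2 was lost only without KO replicate 2 (adjusted p = 0.051). With the spread of all 12 libraries, 0 members of either list passed.

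Among lipid synthesis genes, calls lay mostly in the cholesterol pathway. Of 27 genes of cholesterol synthesis and uptake, 11 fell and 0 rose (40.7%, beside 1.4% lower over all genes tested), with a median of -0.16. Cyp51, a demethylase of the pathway, lay at 281, 264 and 294 CPM in WT and at 232, 232 and 241 in KO (-0.25 ± 0.04, edgeR adjusted p = 0.01). Fdps, which makes farnesyl diphosphate, lay at 146, 142 and 152 CPM in WT and at 120.0, 123 and 129 in KO (-0.24 ± 0.04, adjusted p = 0.0091). Acat2, which makes acetoacetyl-CoA, fell by 0.24 ± 0.04. All 3 were lost without KO replicate 1 or KO replicate 2, with adjusted p up to 0.069. The count of the list was 7, 17 and 4 without WT replicate 1, 2 or 3 and 0, 0 and 3 without KO replicate 1, 2 or 3. Elovl6, a fatty acid elongase, was the 1 of 13 fatty acid synthesis genes to pass, and it fell (-0.38 ± 0.07), lost without WT replicate 3 or any 1 KO library. Sterol-sensing factors act through a short element, and the letters TCACNCCAC were searched in the same windows. Hmgcs1, an early enzyme of the pathway that fell by 0.18 ± 0.04, was the 1 of 9 lower genes with a window to hold a match (11.1%), beside 0 of 9 other members and 1.29% of all tested genes with a window. Its sequence, chr13:119690174-119690262 on the plus strand of GRCm38.p6, is given with the match in capitals.
Hmgcs1: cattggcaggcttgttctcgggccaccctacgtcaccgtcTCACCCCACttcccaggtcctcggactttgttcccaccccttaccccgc

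**Figure D5:**
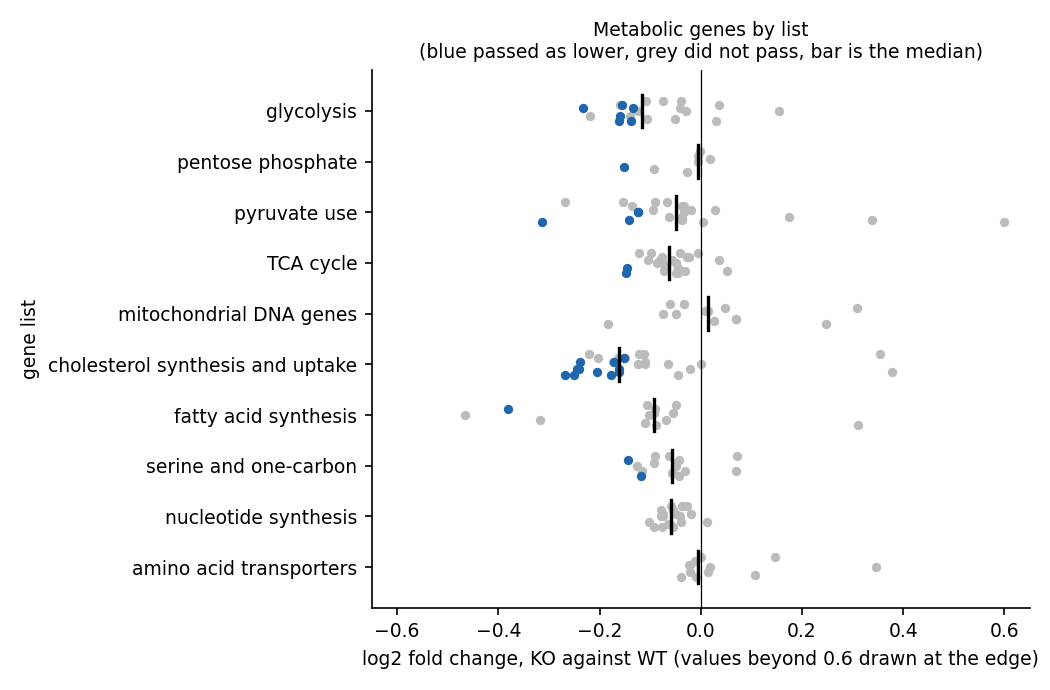
Log2 fold change of KO against WT (horizontal axis) of the tested genes of 10 metabolic lists; blue passed as lower, grey did not pass, and the bar is the list median, with values beyond 0.6 drawn at the edge. The glycolysis and cholesterol medians lie at -0.12 and -0.16, and the 13 mitochondrial DNA genes centre on 0.01 with 0 passing.

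Mitochondrial and biosynthetic lists held 0 to 2 calls each, beside 1.4% of all genes called lower. Of 24 TCA cycle genes 2 fell (8.33%; Suclg1 and Idh2, both by 0.15), and of 7 pentose phosphate genes 1 fell (14.3%), Pgd, by 0.15. Of 16 serine and one-carbon genes 2 fell (12.5%), Shmt1 by 0.14 and Psat1 by 0.12. Each of these calls was lost in at least 4 of the 6 fits with 1 library left out, always including the fits without any 1 KO library. The 13 genes of mitochondrial DNA had a median of 0.01 and together reached 16860 ± 755 CPM in WT and 17220 ± 502 in KO. By edgeR 0 passed among these 13, among 19 nucleotide synthesis genes and among 12 amino acid transporters. A count of 0 in lists of this size is near the 4.76% called over all genes. Even so, 1 of 19 nucleotide synthesis and 2 of 24 TCA cycle genes lay above 0. Their medians were -0.058 and -0.063, beside 0 over all genes tested.

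Among cell death genes, Pmaip1 was the clearest change. It encodes Noxa, a promoter of mitochondrial death that binds Mcl1, and lay at 14.3, 13.6 and 14.2 CPM in WT and at 20.1, 19.8 and 20 in KO (0.51 ± 0.04, edgeR adjusted p = 0.0007). Its call held with any 1 library left out but not with the spread of all 12 libraries (adjusted p = 0.064). It was the 1 of 10 death-promoting Bcl2 family genes to pass, and of 7 survival genes of the family 0 passed. Over all genes tested 4.76% passed, so such counts in lists of this size say little about the lists. Of 22 death receptor and caspase genes, 3 rose (13.6%, beside 3.37% higher over all genes tested). Birc2, an inhibitor of apoptosis protein, lay at 34.6, 38.6 and 38.0 CPM in WT and at 44.2, 46.6 and 44.8 in KO (0.29 ± 0.05, adjusted p = 0.011), lost without KO replicate 2 or KO replicate 3 (up to 0.068). Mlkl, the effector of necroptosis and itself induced by interferon, rose by 0.46 ± 0.11, lost without WT replicate 1, WT replicate 3 or any 1 KO library (up to 0.15). Of 15 p53 targets, Trp53inp1 rose from 66.9 to 94.7 CPM, lost without WT replicate 1, WT replicate 3, KO replicate 2 or KO replicate 3 (up to 0.11), and also under a replicate block and without a filter on low counts (up to 0.13).

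Stress and growth lists differed in their number of calls. By edgeR 0 genes passed among 17 of endoplasmic reticulum folding, 14 heat shock chaperones, 29 of ribosome biogenesis and 33 of DNA replication. Over all genes tested 4.76% passed, with a median change of 0. Small shifts were still present. Above 0 lay 1 of 29 ribosome biogenesis genes (median -0.06) and 7 of 33 replication genes (median -0.05). The folding and chaperone medians were -0.035 and -0.007. Of 18 genes of the integrated stress response, 1 fell and 1 rose. Stc2, a secreted glycoprotein of this response, lay at 2.06, 1.78 and 1.73 CPM in WT and at 0.990, 0.725 and 0.708 in KO (-1.20 ± 0.18, edgeR adjusted p = 0.0074), and missed the threshold only without KO replicate 2 (adjusted p = 0.051). Nupr1, a stress-induced nuclear protein, went the other way, from 0.548 ± 0.170 to 1.11 ± 0.142 CPM (1.02 ± 0.25, adjusted p = 0.045), and was lost without WT replicate 1, WT replicate 3 or any 1 KO library (up to 0.18). Of 16 glutathione and NRF2 genes, the peroxidases Gpx4 and Gpx1 fell by 0.17 and 0.14 and Srxn1 rose by 0.44, each lost without WT replicate 3 or any 1 KO library. Of 13 genes of the Myc network, Mxd1, Mxd4 and Txnip rose and Max fell, by 0.23, 0.43, 0.32 and -0.13. Mxd1 and Max lost their call without WT replicate 1, WT replicate 3 or any 1 KO library, and Mxd4 without any 1 of the 6 libraries. Txnip, which restrains glucose uptake and is repressed in growing cells, lay at 28.7, 24.8 and 28.3 CPM in WT and at 32.1, 35.8 and 34.6 in KO (0.32 ± 0.06, adjusted p = 0.022), lost without KO replicate 2 or KO replicate 3. Of 32 mitosis genes, 4 fell (Ube2c, Cdc20, Ccnb1 and Aurka), by 0.15 to 0.21, which is 12.5% beside 1.4% lower over all genes tested. The mitosis count was 6, 8 and 0 without WT replicate 1, 2 or 3 and 0, 0 and 1 without KO replicate 1, 2 or 3, and 0 passed with the spread of all 12 libraries.

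The calls were also placed by position in mm10. Pkm spans 59656368 to 59679375 of chromosome 9, on the plus strand. Of 86 other tested genes whose first coordinate lies within 5 Mb of it, 2 rose and 2 fell, 4.65% beside 4.76% over all genes. Thsd4, a gene with thrombospondin domains on the minus strand from 59966931 to 60522046, had 0, 0.0280 and 0 CPM in WT and 1.54, 1.28 and 1.42 in KO. That is 2 counts in WT against 309 in KO, a ratio of 157 with a 95% counting interval of 43 to 1300 (edgeR adjusted p = 0.00011). At rest it lay at 0.157, 0.126 and 0.249 CPM in WT and at 0.404, 0.503 and 0.583 in KO, where the change did not pass (adjusted p = 0.26). Gm49759, a transcript inside Pkm on the same strand (59672814 to 59676700), fell by 0.61 ± 0.05; its counts cannot be told apart from those of Pkm. Sema7a rose by 0.27 and Nptn fell by 0.15, each lost without WT replicate 1 or any 1 KO library, and Sema7a also without WT replicate 3 and under a replicate block (up to 0.12).

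Calls were also counted around Mbnl1 on chromosome 3 (60472830 to 60629750, plus strand). Of 36 tested genes within 5 Mb, 4 rose (Nbea, Gm37589, Gm33707 and Gm38326) and 2 fell (Eif2a and Rap2b), with Mbnl1 itself not counted. That is 16.7%, beside 4.76% over all genes tested. Nbea and Gm37589 lay near the floor of 3 counts, at 0.041 and 0.051 CPM in WT and 0.192 and 0.232 in KO. Gm37589 starts 62921 bases after the start of Mbnl1, inside its span, so its reads may be those of Mbnl1. Gm33707, annotated as a processed pseudogene at 60769887 to 60770455, had 0 counts in the 3 WT libraries and 2.59, 2.48 and 2.03 CPM in the KO libraries, which is at least 58.2-fold higher against a floor of 3 counts per library. Gm38326, a long noncoding RNA at 60788361 to 60794730, lay at 0.0539, 0.154 and 0.0135 CPM in WT and at 2.69, 2.17 and 2.75 in KO. Both are apart from WT in every KO library. Eif2a, a translation initiation factor gene at 58525821 to 58557501, lay at 146, 149.7 and 152 CPM in WT and at 119.5, 119 and 115 in KO (-0.34 ± 0.03, edgeR adjusted p = 0.0007). These 3 kept their call with any 1 library left out. Rap2b fell by 0.25 ± 0.06 and was lost in 5 of 6 such fits (without WT replicate 1, WT replicate 3 or any 1 KO library). Processed pseudogenes resemble their parent genes, so the reads of Gm33707 are uncertain in origin.

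One pair of receptor segments switched completely between the groups. Trav7-2 measured 1.76, 1.47 and 1.57 CPM in WT and 0 in KO, and Trav7d-2 measured 0 in WT and 1.5, 1.3 and 1.38 CPM in KO (at least 38.9-fold and 34-fold). Their annotated transcripts share 336 of 337 aligned bases (99.7%), so reads of one can hardly be assigned. The sum of both was 1.6 ± 0.145 CPM in WT and 1.39 ± 0.100 in KO (SD, n = 3). At rest the same switch ran within groups: Trav7-2 was alone in WT replicate 1 and KO replicates 1 and 2, Trav7d-2 was alone in KO replicate 3, and WT replicates 2 and 3 held both.

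The KO against WT difference was compared between stimulated and resting cells. At rest, 6 of 16637 genes passed (0.0361%): Mbnl1, Pkm, Cxcr4, Gm10275, Sox4 and Gm33707. Of these 6, 5 also passed in stimulated cells (83.3%), which are 0.695% of the stimulated calls. Of 709 stimulated calls tested in both conditions, 348 had the same sign at rest. The test of the difference between conditions called 121 of 17460 genes (0.693%), 97 with the stimulated difference higher and 24 with it lower, and 78 of the 121 were among the 719. Interferon genes were among them: Oasl1 had a difference of 1.62 ± 0.26 (edgeR adjusted p = 0.018) and Mx1 one of 1.49 ± 0.22 (adjusted p = 0.015). Their levels at rest were 12.9 ± 0.567 CPM in WT and 12.5 ± 1.23 in KO for Oasl1, and 17.5 ± 1.94 and 15.2 ± 1.67 for Mx1. Both genes were lower in the stimulated than in the resting libraries of either genotype. Xist lay at 0.0577 to 0.0971 CPM in the 6 resting libraries and Ddx3y at 158 to 188 CPM, the reverse of the stimulated libraries. Condition, the sex these transcripts mark and the table of deposit cannot be told apart in this test, for any gene. The count of 121 was 39, 217 and 42 without WT stimulated replicate 1, 2 or 3, and 55, 31 and 27 without KO stimulated replicate 1, 2 or 3. It was 238, 63 and 1646 without WT resting replicate 1, 2 or 3, and 63, 52 and 56 without KO resting replicate 1, 2 or 3.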

How the data were processed

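Polyadenylated RNA of mouse CD4 T cells was sequenced with a stranded kit, per the labels' protocols, which do not say whether strand was used in counting. The deposited values are expected counts per gene from RSEM, which need not be whole, in 1 table per condition. Tools named in the submitters' processing notes, without roles, are RSEM 1.3.1, STAR 2.7.0f, cutadapt 1.18 and bcl2fastq 2.20, with the build mm10. Letters in the labels tied each column to its library. Symbols and coordinates came from GENCODE annotation of mm10 by gene identifier, and promoter windows from RefSeq (GRCm38.p6).

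Expected counts were rounded, filtered (filterByExpr at a minimum of 10 counts and a total of 15), TMM-scaled, and tested in edgeR 4.0.16 (robust quasi-likelihood F-test, R 4.3.3, Benjamini-Hochberg adjustment, threshold 0.05), on the 6 stimulated libraries without covariates. The difference between conditions was tested in 1 fit of the 4 groups over 12 libraries; condition is also the table a library came from. CPM of genes use TMM-scaled library sizes; marker sums and the receptor segments use unscaled totals. Replicates of a group all differed by more than sampling noise (chi-square per degree of freedom 3.79 to 17.1 in stimulated groups), so none was merged. Floors of 3 counts and counting intervals cover counting error only. The scripts were tested on simulated counts. Results of 2 genes are not reported here.

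The members, gene lists and motifs were chosen with earlier results of these data known. The rule for named genes took Pkm, the 20 largest changes in each direction (mean at least 3 CPM, no overlap between groups, leaving out predicted genes, pseudogenes and receptor segments), the 8 smallest p in each direction, the 5 largest changes that passed in a list, or its 2 members of highest mean where none passed, and all that passed within 5 Mb of Pkm or Mbnl1. Genes named outside it, such as Trav7-2, Trav7d-2 and genes that did not pass, were chosen after their values were seen. Alternatives were DESeq2 1.42.0 and its size factors, no filter, at least 1 CPM in 3 libraries, a non-robust fit, a replicate block, all 12 libraries in the fit, and each library left out.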

Additional observations from a re-analysis of the deposited data

Results flagged for a closer look

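Among the genes followed one by one, 28 had a KO against WT difference that itself differed between stimulated and resting cells (edgeR adjusted p under 0.05 in the test of that difference). Values are the stimulated minus the resting log2 fold change, with edgeR adjusted p from 4.6e-06 to 0.049. The stimulated and resting libraries also differed in sex-linked transcripts, so condition and sex cannot be told apart for any of these genes.

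Interferon and presentation genes had the difference positive: Oasl1 at 1.62, Ifi213 at 1.51, Mx1 at 1.49, Oas1a at 1.33, Dhx58 at 1.07, Ifi209 at 0.98, Samd9l at 0.89, Cd1d1 at 0.86 and H2-Q6 at 0.67. Genes of dendritic and myeloid cells did as well: Cd14, a receptor for bacterial lipid, at 2.77, Ccl17 at 2.2, Cfb, a complement factor, at 1.94, Apol7c at 1.80, Cacnb3 at 1.35 and Nrp2 at 1.00. At rest, Cd14 measured 17.6 ± 10.7 CPM in WT and 5.09 ± 0.194 in KO (SD, n = 3), so the spread among resting WT libraries was wide. Cfb and Apol7c were also lower in KO at rest, by log2 changes of -0.88 and -0.47 that did not pass. Ccl17 rose by 1.05 in stimulated cells and had too few counts at rest to be tested there.

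Homing, effector and signalling genes had Cxcr4 at 2.30, S100a4 at 1.76, Fosb at 0.96, Trdc at 0.95, Anxa2 at 0.92, S100a6 at 0.91, Klf2 at 0.57 and Ptpn22 at 0.34. Srxn1, an antioxidant enzyme, stood at 1.32, Txnip at 0.58 and Thsd4 at 5.56. For Srxn1 the larger part lay at rest, with a change of -0.9 that did not pass, beside 0.44 in stimulated cells. Its resting WT libraries lay at 5.09, 3.72 and 2.80 CPM. Tet1 at -0.80 and Lss, of sterol synthesis, at -0.47 were the 2 with a negative difference. For Cxcr4 the stimulated and the resting fold change, 0.75 and -1.57, both passed and had opposite signs.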

How the results depend on the processing

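The 508 higher and 211 lower genes became 191 and 28 with all 12 libraries in the fit, and the lower ones 407 with DESeq2's Wald test and 352 without a filter on low counts. Leaving out 1 library gave 110 to 917 higher and 18 to 491 lower genes. The share of higher among called genes was 70.7%, and ranged from 64.1% with DESeq2 to 87.2% with all 12 libraries. The 121 genes whose difference changed with condition became 1012 with DESeq2 and 204 with at least 1 CPM in 3 libraries, and 27 to 1646 with 1 library left out. The causes were not tested. With the replicate number as a block, 701 genes were higher, 296 lower and 132 differed between conditions. Same-numbered libraries deviated together only in part (r = -0.10, 0.12 and 0.15 for numbers 1, 2 and 3), and WT replicate 1 correlated best with KO replicate 3 (0.14), so the libraries were taken to share only a number. Of 158 genes followed, 110 lost their call without at least 1 library and 93 with all 12 libraries. Without a filter 19 lost it, under the block 4, in the non-robust fit 5 and at 1 CPM 3. With DESeq2's size factors 1 lost it, and with DESeq2 0 did. Directions were reversed for 0, which the lack of overlap between groups had all but fixed in advance. Genes near the floor of 3 counts rest on few counts, and small changes there were not detectable. Among genes under 3 CPM, those called higher had a median log2 change of 1.15.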
